A study of Macaca mulatta with 136 samples.

Results

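Norrin and Wnt pathway genes were followed across the macaque eye in 10 genes of the 19422 gene identifiers that the files list. The genes were chosen by name: NDP, which encodes the ligand norrin, and WNT2B, a Wnt ligand; the receptors and co-receptors FZD4, FZD5, LRP5 and TSPAN12; and the secreted Wnt modulators SFRP1, SFRP2, DKK3 and WIF1. The rule itself uses names and no measured value, and each symbol matched 1 entry. The tissue came from postmortem eyes of 2 adult rhesus macaques, RM03 and RM04, with no treatment given in the labels. A punch of 2 mm was taken from the fovea/macula (here the fovea), the perimacula, the nasal location and the temporal periphery (here the periphery) of the right and the left eye of each animal, and was split by microdissection into 2 tissues, the neural retina and the RPE/choroid, which joins the pigment epithelium to the vascular choroid. The 32 libraries form 8 groups of tissue and location, each with 4 eyes. Eyes of the same animal are not independent, so p-values do not extend to other animals. They measure the spread of libraries left after a single animal difference, shared by all groups tested together. In tests over both tissues, an animal difference that varies between the tissues is part of that spread.

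Norrin is a secreted protein that is not a Wnt but binds the Wnt receptor frizzled-4. With the co-receptor LRP5 and the tetraspanin TSPAN12 it turns on beta-catenin signalling in retinal endothelial cells, and loss of any of these genes disturbs the growth of retinal vessels and their barrier. Wnt ligands use the same receptors, and secreted proteins of the SFRP, WIF and DKK families modulate Wnt signalling outside the cell. In bulk tissue such as this, fewer cells of a type and less RNA per cell cannot be told apart.

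Levels are given as TMM-normalized CPM (counts of a gene relative to the scaled total of its library), and 4 values in a row are always the right and left eye of RM03 followed by the right and left eye of RM04. A gene is called where edgeR's quasi-likelihood test, with the animal as covariate, gave an adjusted p under 0.05 over all genes tested. Fold changes are on the log2 scale with their standard error (SE). All 10 genes passed the filter on low counts in both tissues. Libraries held 42448891 to 78574034 estimated counts. Libraries of the fovea, perimacula and nasal location shared 2 flow cells, with 5 lanes each, whereas all peripheral libraries were run on a separate one, with 2 lanes each. Any difference from the periphery and a difference between flow cells cannot be told apart, while the other 3 locations were compared within shared flow cells.

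The tissue labels matched their defining markers. The summed level of 8 rod markers was 3667 to 26595 CPM in the 16 retina libraries and 27.5 to 858 CPM in the 16 RPE/choroid libraries, and RPE65, the isomerase of the visual cycle in the pigment epithelium, was at 482 to 8597 CPM in RPE/choroid and 52.2 to 219 CPM in retina. Within RPE/choroid some libraries stood apart. The sum of 6 Schwann cell markers exceeded 2000 CPM in 4 libraries, both eyes of RM03 at the periphery, the right eye of RM03 at the perimacula and the left eye of RM04 at the perimacula, against 216 to 1223 CPM in the other RPE/choroid libraries. The rod marker sum exceeded 400 CPM in 3 RPE/choroid libraries, the right eye of RM03 and the left eye of RM04 at the periphery and the right eye of RM04 at the fovea. Calls of the 10 genes in RPE/choroid that were lost or gained without either set of libraries are given beside the results.

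**Figure D1:**
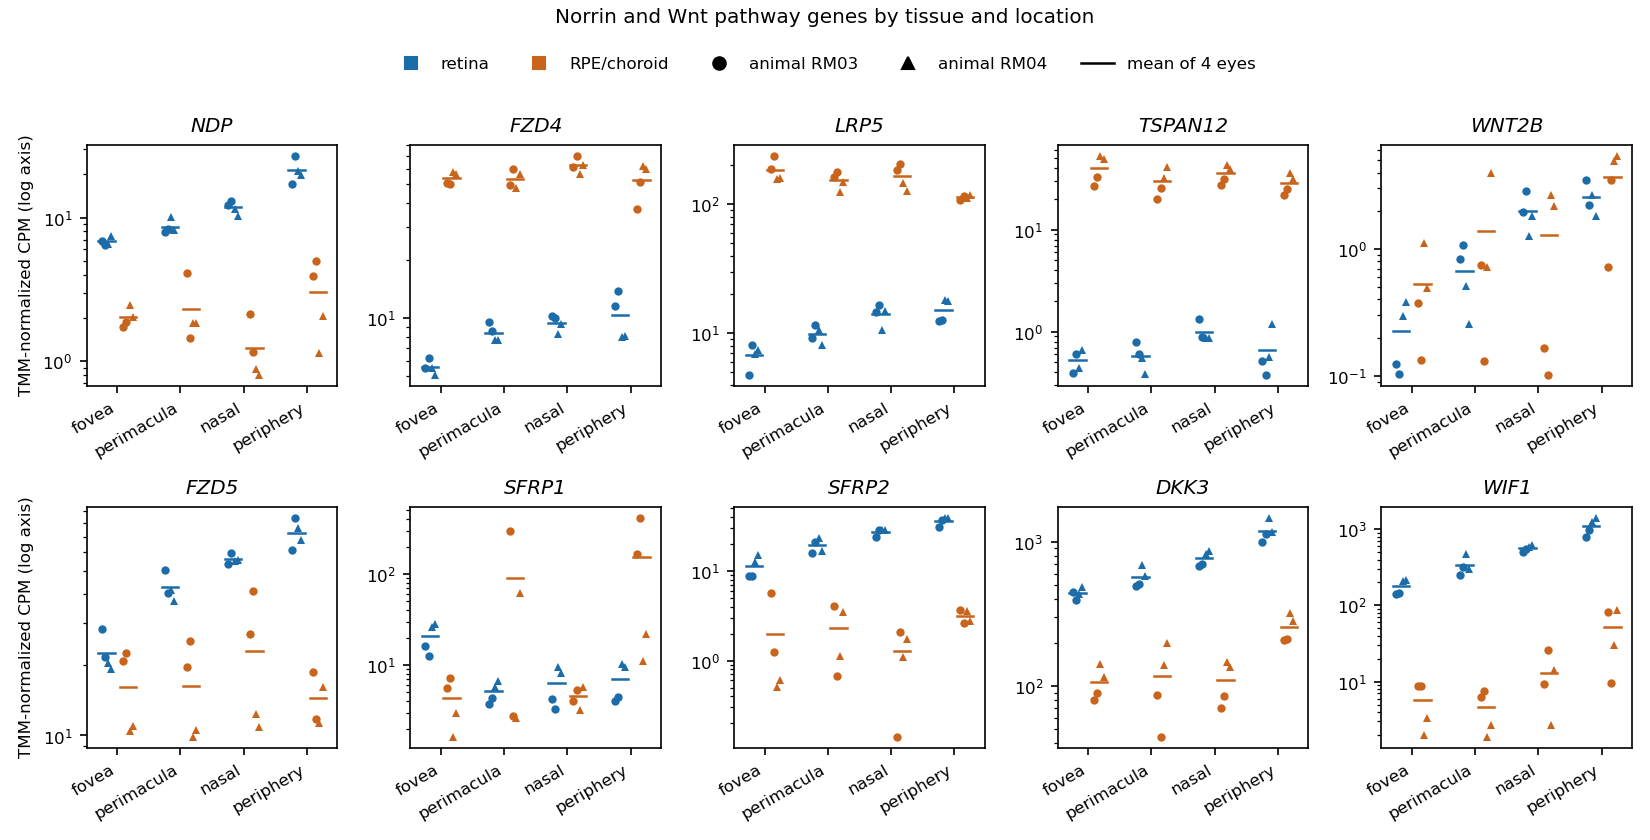
Levels of the 10 genes in every library, in TMM-normalized CPM on log axes, by location (horizontal axis) and tissue (blue retina, orange RPE/choroid), with circles for eyes of RM03, triangles for eyes of RM04 and a line at the mean of 4 eyes. In retina, 8 genes have their lowest mean and no overlap with the periphery at the fovea, SFRP1 has its highest mean there, and the SFRP1 values in RPE/choroid span 1.63 to 415 CPM.

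In retina, 9 of the 10 genes differed between fovea and periphery, 8 lower at the fovea and SFRP1 higher. Over all genes tested 67.0% were called, 36% lower and 31% higher at the fovea. The median log2 fold change of the 10 genes was -1.48, beside -0.06 over all genes. The fovea and periphery values did not overlap for the same 9 genes, as for 53.8% of all genes tested. For 8 of the genes, NDP, FZD4, LRP5, WNT2B, FZD5, SFRP2, DKK3 and WIF1, the means stood in the same order, fovea, perimacula, nasal, periphery from lowest to highest. Each of the 9 calls held in every alternative analysis that gave a value, which were 12 for WNT2B and 13 for the other genes.

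NDP (ENSMMUG00000018001), the norrin gene, had its lowest retinal level at the fovea and its highest at the periphery. Its level at the fovea was 6.89, 6.42, 6.57 and 7.43 CPM, and at the perimacula 7.92, 8.39, 10.1 and 8.24 CPM. It was 12.3, 13.1, 11.4 and 10.3 CPM at the nasal location and 17.2, 27, 21.3 and 19.8 CPM at the periphery. No value of one location reached into the next. Fovea against periphery gave a log2 fold change of -1.59 (SE 0.14, adjusted p = 1.23e-06 by edgeR, lower in 4 of 4 eyes), and against the nasal location, within shared flow cells, -0.75 (SE 0.13, adjusted p = 0.00022). The neighbouring fovea and perimacula, at 6.83 ± 0.444 and 8.65 ± 0.953 CPM (SD, n = 4), did not pass the test (log2 fold change -0.28, SE 0.14, edgeR adjusted p = 0.133), although the fovea was lower in 4 of 4 eyes and a fit of only these 2 locations called it (-0.33, adjusted p = 0.0346), 1 of 13 alternatives that ran from 0.0346 to 0.434. Perimacula and nasal location did not pass either (-0.44, SE 0.13, edgeR adjusted p = 0.0995, lower in 4 of 4 eyes). That step was called in 2 of 14 alternatives, DESeq2 (adjusted p = 0.0414) and the lanes of the flow cell HLKMNBBXX alone (0.0351), in a range of 0.0351 to 0.445.

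WNT2B (ENSMMUG00000007765), a Wnt ligand, was scarce at the fovea. The foveal retina gave 0.123, 0.104, 0.296 and 0.381 CPM, which rest on 6, 6, 18 and 23 estimated counts. The peripheral retina gave 3.49, 2.21, 2.66 and 1.83 CPM, and the nasal retina 1.96, 2.88, 1.27 and 1.82 CPM. The perimacula lay between, at 0.838, 1.08, 0.507 and 0.258 CPM, where the last value fell inside the foveal range. Against the periphery the log2 fold change of the fovea was -3.36 (SE 0.47, edgeR adjusted p = 5.35e-05) and against the nasal location it was -2.99 (SE 0.44, edgeR adjusted p = 4.92e-05). Fovea against perimacula passed (-1.40, SE 0.49, edgeR adjusted p = 0.0444), but that call was lost in 6 of 12 alternatives, whose adjusted p ran from 0.00988 to 0.245. Nasal location and periphery were not called (-0.37, SE 0.37, edgeR adjusted p = 0.425).

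FZD4 (ENSMMUG00000004048), the receptor of norrin, was lower at the fovea as well. The foveal retina gave 5.52, 6.21, 5.48 and 5.07 CPM and the peripheral retina 11.6, 13.9, 7.93 and 8.05 CPM, so that in the periphery both eyes of RM03 lay above both eyes of RM04. This is a log2 fold change of -0.81 (SE 0.13, edgeR adjusted p = 0.000141), and -0.72 (SE 0.11, edgeR adjusted p = 6.14e-05) against the nasal location. The other 3 locations, at 8.39, 9.47 and 10.4 CPM on average, were not called against each other. Of these steps, perimacula against periphery was the nearest to a call (-0.28, SE 0.13, edgeR adjusted p = 0.0859, lower in 4 of 4 eyes), and 1 of 13 alternatives, with the nasal libraries in the fit, called it (adjusted p = 0.0454, range 0.0454 to 0.587). LRP5 (ENSMMUG00000031237), the co-receptor, was at 4.80, 8.15, 6.92 and 7.49 CPM at the fovea and 12.5, 12.6, 18 and 17.8 CPM in the peripheral punches, with no overlap. Its log2 fold change was -1.09 (SE 0.18, edgeR adjusted p = 0.000208), and -1.02 (SE 0.20, edgeR adjusted p = 0.000506) against the nasal location.

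TSPAN12 (ENSMMUG00000023310), the tetraspanin that assists norrin at the receptor, was scarce in every retina library, with 19 to 100 estimated counts. The fovea gave 0.390, 0.609, 0.445 and 0.663 CPM and the periphery 0.515, 0.379, 0.567 and 1.18 CPM. These ranges overlapped, and the log2 fold change was -0.26 (SE 0.36, edgeR adjusted p = 0.55). The nasal retina gave 1.32, 0.895, 0.866 and 0.868 CPM, above every foveal value (-0.86, SE 0.34, edgeR adjusted p = 0.0435). This call rests on few counts: it was lost in 8 of 14 alternatives, including the paired fit with the eye as a replicate block (-0.86, edgeR adjusted p = 0.0533) and the lanes of the flow cell HLKJ7BBXX alone (-0.32, adjusted p = 0.512), with adjusted p from 0.00204 to 0.571. Without the right eye of RM03, whose nasal value was the highest, it was -0.53 (adjusted p = 0.292).

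FZD5 (ENSMMUG00000048510), a Wnt receptor used by retinal progenitors during eye development, had a higher mean at each location further along the same order. It was at 28.3, 21.6, 20.4 and 19.2 CPM at the fovea, 50.7, 40.5, 41.7 and 37.3 CPM in the perimacula, 53.5, 59.8, 55.1 and 55.9 CPM at the nasal location and 61.3, 84.1, 75.8 and 67.6 CPM at the periphery. No 2 neighbouring locations overlapped. FZD5 was lower at the fovea than at the periphery by a log2 fold change of -1.65 (SE 0.13, edgeR adjusted p = 6.22e-07), and against the perimacula -0.87 (SE 0.13, edgeR adjusted p = 0.000491). Nasal location and periphery differed by -0.35 (SE 0.11, edgeR adjusted p = 0.0188), a call lost in 2 of 12 alternatives, without the left eye of RM03 (adjusted p = 0.0953) and without the right eye of RM04 (0.113), in a range of 0.00133 to 0.113. Perimacula and nasal location did not pass (-0.41, SE 0.11, edgeR adjusted p = 0.0913, lower in 4 of 4 eyes), and 3 of 14 alternatives called them, among them DESeq2 (adjusted p = 0.0387, range 0.0387 to 0.59).

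SFRP1 (ENSMMUG00000019082), a secreted frizzled-related protein that binds Wnts, was the only one of the 10 genes that was higher in the foveal retina. The fovea gave 16.1, 12.6, 26 and 28.2 CPM. The perimacula gave 3.71, 4.40, 5.81 and 6.77 CPM, the nasal location 4.19, 3.32, 9.47 and 8.28 CPM and the periphery 4.07, 4.43, 10.3 and 9.54 CPM. Every foveal value lay above every other value, and both eyes of RM04 lay above both eyes of RM03 at each location. The fovea was higher by a log2 fold change of 1.64 (SE 0.14, edgeR adjusted p = 9.02e-07) against the periphery, 2.02 (SE 0.14, edgeR adjusted p = 8.66e-06) against the perimacula and 1.80 (SE 0.14, edgeR adjusted p = 2.61e-07) against the nasal location. The step from perimacula to periphery (-0.37, SE 0.14, edgeR adjusted p = 0.0411) was lost in 9 of 13 alternatives (adjusted p 0.0262 to 0.33).

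SFRP2 (ENSMMUG00000015851), a relative of SFRP1 in the same family, differed from it in the place of the fovea, which had the lowest SFRP2 level in retina and the highest SFRP1 level. The other 3 locations stood in the same order of means for both genes. It was at 8.76, 8.86, 12.6 and 15 CPM at the fovea and 30.7, 37.6, 39.3 and 39.1 CPM in the periphery (log2 fold change -1.67, SE 0.15, edgeR adjusted p = 1.59e-06). The perimacula gave 16.1, 21.2, 23.7 and 16.6 CPM and the nasal location 24.1, 28.4, 28.5 and 28.7 CPM. The groups of neighbouring locations did not overlap.

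DKK3 (ENSMMUG00000022862), a secreted protein of the Dickkopf family, and WIF1 (ENSMMUG00000016887), Wnt inhibitory factor 1, rose in retina at each step from fovea to periphery. DKK3 was at 446, 392, 433 and 483 CPM at the fovea, 493, 511, 689 and 576 CPM in the perimacula, 683, 705, 826 and 856 CPM at the nasal location and 989, 1129, 1461 and 1166 CPM at the periphery. Fovea and periphery differed by a log2 fold change of -1.37 (SE 0.10, edgeR adjusted p = 2.82e-07). WIF1 was at 143, 144, 209 and 218 CPM at the fovea, 248, 320, 468 and 303 CPM in the perimacula, 499, 555, 588 and 624 CPM at the nasal location and 783, 963, 1260 and 1410 CPM at the periphery. Its log2 fold change of fovea against periphery was -2.57 (SE 0.14, edgeR adjusted p = 6.67e-08), with a range of -2.60 to -2.53 over 13 alternatives. The step from fovea to perimacula was a log2 fold change of -0.31 for DKK3 (SE 0.10, edgeR adjusted p = 0.0276, lost in 3 of 13 alternatives, 0.0098 to 0.109) and -0.86 for WIF1 (SE 0.13, edgeR adjusted p = 0.000527). These were also the 2 genes of the 10 called between perimacula and nasal location, where 1.49% of all genes were called: DKK3 at -0.44 (SE 0.09, edgeR adjusted p = 0.0275) and WIF1 at -0.78 (SE 0.13, edgeR adjusted p = 0.0112). Each of those 2 calls was lost in 4 of 14 alternatives, with adjusted p of 0.00057 to 0.265 for DKK3 and 7.24e-06 to 0.167 for WIF1.

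**Figure D2:**
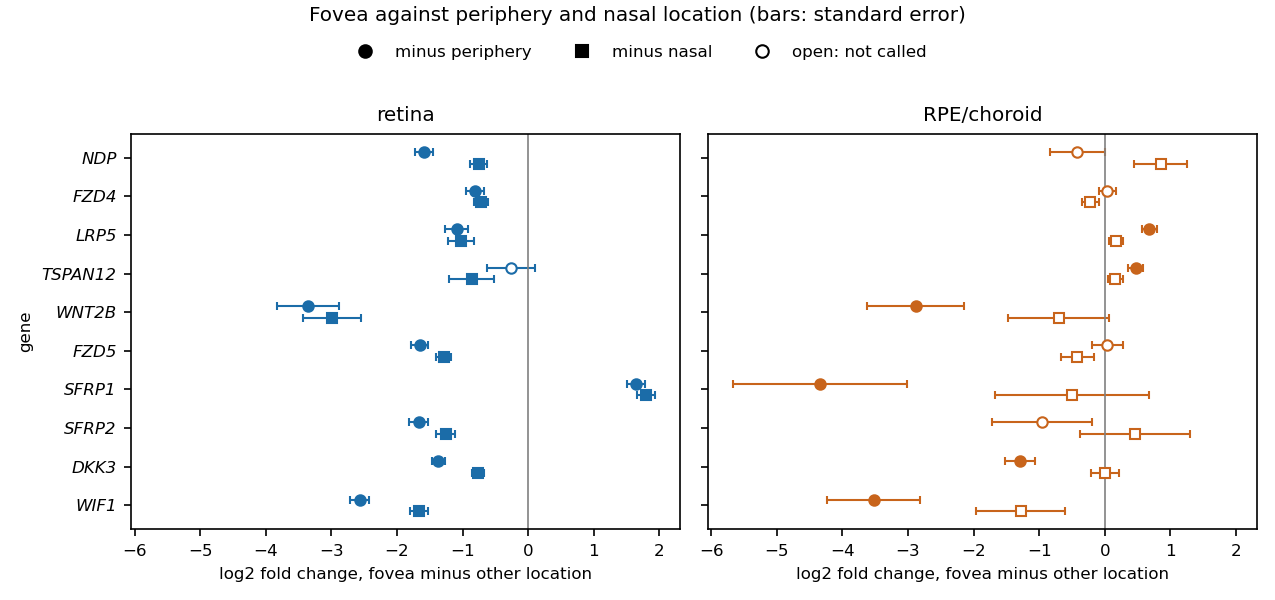
Log2 fold changes of the fovea against the periphery (circles) and against the nasal location (squares) for the 10 genes in retina (left) and RPE/choroid (right), with bars of 1 standard error and filled symbols for genes called by edgeR. In retina both comparisons point the same way for every gene and only SFRP1 lies above 0, whereas in RPE/choroid no gene was called between fovea and nasal location.

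Over the other retina comparisons, the number of the 10 genes called was 10 between fovea and nasal location (52.2% of all genes), 7 between fovea and perimacula (35.2%), 8 between perimacula and periphery (50.3%) and 5 between nasal location and periphery (48.7%). The 3 genes not called between fovea and perimacula were NDP, LRP5 and TSPAN12, and the 5 called between nasal location and periphery were NDP, FZD5, SFRP2, DKK3 and WIF1.

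Markers of other cells moved with location in retina as well. The sum of 5 Müller glia markers was 1106 to 1179 CPM at the fovea and 3120 to 4495 CPM at the periphery. That of 8 endothelial markers was 272 to 323 and 546 to 650 CPM, and that of the rods 3667 to 4234 and 22677 to 26595 CPM. The endothelial markers did not move as one. The median of VWF rose from 7.16 CPM at the fovea to 29.5 CPM at the periphery. PECAM1 (9.41 and 8.93 CPM) and CDH5 (4.94 and 4.36 CPM) did not rise, and the other members were not examined singly. The sum of 6 pigment epithelium markers in retina was 281 to 415 CPM at the fovea and 1841 to 2512 CPM at the periphery. This was the direction of FZD4 and LRP5, which were far higher in RPE/choroid. TSPAN12 was also far higher in RPE/choroid, but in retina it was not called between fovea and periphery (-0.26, edgeR adjusted p = 0.55). The pigment epithelium list shares RLBP1 with the Müller glia list, so the sum is not of pigment epithelium alone. Its members RPE65, BEST1 and TYRP1 had lower medians, 58.3, 9.98 and 18.7 CPM at the fovea and 136, 67.1 and 128 CPM at the periphery. The sum of 6 ganglion cell markers moved the other way. It was 7363 to 8391 CPM at the fovea and 359 to 774 CPM at the periphery. Between fovea and periphery this was the direction of SFRP1, but not outside the fovea. The ganglion cell median fell from 2949 CPM at the perimacula to 1595 CPM at the nasal location and 584 CPM at the periphery. Mean SFRP1 rose from 5.17 to 6.32 and 7.09 CPM over the same locations. The sum of 6 cone markers was also highest at the fovea. Its medians were 1560, 1120, 1073 and 1264 CPM at fovea, perimacula, nasal location and periphery. The part of these shifts in the results for the 10 genes was not tested. The genes whose log2 level followed each gene most closely over the 16 retina libraries, out of 9816 genes whose mean log2 CPM was 3 or more, were SEPT2, RCBTB2 and C1H1orf61 for NDP (Pearson r 0.973 to 0.965), NR2E1, TTLL4 and VANGL2 for FZD5 (0.987 to 0.984), PSMC3IP, PSAT1 and ERBB2 for SFRP2 (0.983 to 0.979), GNA12, VIM and MYCBP for DKK3 (0.984 to 0.976) and PSAT1, VIM and MFAP2 for WIF1 (0.989 to 0.985). VIM encodes vimentin, an intermediate filament of Müller glia, and NR2E1 a nuclear receptor of retinal progenitors and glia. These correlations describe libraries that share 4 eyes and 4 locations.

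In RPE/choroid the set behaved less uniformly. Between fovea and periphery 6 of the 10 genes were called, LRP5 and TSPAN12 higher at the fovea and WNT2B, SFRP1, DKK3 and WIF1 lower, beside 44.1% of all genes tested, 21.2% higher and 22.9% lower. The median log2 fold change of the 10 genes was -0.69, beside -0.06 over all genes. Values of fovea and periphery did not overlap for LRP5, SFRP1, DKK3 and WIF1, 4 of the 10 genes, as for 31.2% of all genes. Without the 3 libraries high in rod markers 3 of the 10 genes were called, LRP5, WNT2B and DKK3. The 44.1% of all genes belongs to the fit with all libraries, and no such share is given for the smaller fit. That fit kept only the left eye of RM03 and the right eye of RM04 at the periphery. TSPAN12 (0.36), SFRP1 (-4.72) and WIF1 (-2.01) kept their direction, so fewer eyes and fewer rods cannot be told apart as a reason.

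The co-receptor LRP5 was at 185, 236, 157 and 160 CPM in foveal RPE/choroid and 108, 116, 112 and 117 CPM at the periphery, with every foveal value above every peripheral one. The difference in log2 was 0.68 (SE 0.11, edgeR adjusted p = 0.000659), the opposite direction to retina, and it was called in all 15 alternatives (0.45 to 0.76, adjusted p 1.52e-07 to 0.0239). The perimacula, at 153 ± 22.9 CPM, and the nasal location, at 164 ± 34.5 CPM, were each below the fovea, at 185 ± 36.5 CPM (SD, n = 4), in 4 of 4 eyes. Neither difference was called: the log2 fold change of the fovea was 0.27 (SE 0.11, edgeR adjusted p = 0.408) against the perimacula and 0.17 (SE 0.11, edgeR adjusted p = 0.48) against the nasal location. Both were above the periphery, by a log2 fold change of 0.40 (SE 0.11, edgeR adjusted p = 0.0156) for the perimacula and of 0.50 (SE 0.11, edgeR adjusted p = 0.00204) for the nasal location. The perimacular call was lost in 4 of 15 alternatives with adjusted p from 0.00334 to 0.52, among them those without the 4 libraries high in Schwann cell markers (0.14, adjusted p = 0.52) and without the 3 high in rods (0.41, adjusted p = 0.0529). The nasal call was lost in 1 of 14, without the 4 libraries high in Schwann cell markers (0.28, adjusted p = 0.0632). Leaving out those 4 libraries kept only the eyes of RM04 at the periphery.

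TSPAN12 was at 26.7, 33, 53.1 and 49.8 CPM in foveal RPE/choroid and 22, 24.8, 36.1 and 31.6 CPM at the periphery. The 2 groups overlapped because the eyes of RM04 were above those of RM03 at both locations, yet the fovea was higher in 4 of 4 eyes. The fold change in log2 was 0.47 (SE 0.12, edgeR adjusted p = 0.00921), and 3 of 15 alternatives lost the call: no covariate (adjusted p = 0.179), without the left eye of RM04 (0.0586) and without the libraries high in rods (0.124), in a range of 0.00132 to 0.179. FZD4, the receptor itself, was not called: its foveal values of 50.8, 50.1, 57.6 and 56.4 CPM lay within the peripheral range of 36.9 to 61.7 CPM (log2 fold change 0.04, SE 0.13, edgeR adjusted p = 0.849). The ligand NDP was low in RPE/choroid, at 1.72, 1.87, 2.47 and 2.03 CPM at the fovea and 3.92, 4.99, 1.14 and 2.05 CPM at the periphery, with no call (-0.42, SE 0.42, edgeR adjusted p = 0.448). In this layer endothelial markers summed to 1785 to 2684 CPM at the fovea and 1058 to 1381 CPM at the periphery, and 6 markers of smooth muscle and pericytes to 5905 to 9162 and 1042 to 2524 CPM, both in the direction of LRP5 and TSPAN12. Melanocyte markers moved the other way, with 3470 to 5298 CPM at the fovea and 6375 to 8743 CPM at the periphery. The part of these cells in the results was not tested. Over the 16 RPE/choroid libraries the level of TSPAN12 was followed most closely by DYSF, PCDH12 and SH2D3C (Pearson r 0.970 to 0.925 among 10202 genes), of which PCDH12 encodes an endothelial protocadherin, and that of LRP5 by SEMA3F, FOXP4 and ACTN1 (0.976 to 0.953). The closest genes to FZD4, VCAN, FYB1 and MAPKAPK5, reached 0.801 to 0.775.

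SFRP1 in RPE/choroid was high in a few libraries and low in the others. The fovea gave 5.64, 7.13, 1.63 and 2.98 CPM and the nasal location 4.07, 5.39, 3.20 and 5.77 CPM. The perimacula gave 298, 2.77, 2.65 and 61.3 CPM and the periphery 168, 415, 11.1 and 21.8 CPM. At the perimacula 1 eye of each animal was high and the other eye was within the range of the fovea. The Schwann cell marker sum at the perimacula was 9115, 310, 361 and 2455 CPM and at the periphery 5158, 14715, 665 and 1223 CPM, against 277 to 344 CPM at the fovea and 216 to 302 CPM at the nasal location, so the libraries with high SFRP1 were those with high Schwann cell markers. For SFRP1 the fovea was below the periphery by a log2 fold change of -4.34 (SE 1.33, edgeR adjusted p = 0.0219). It was lost without the right eye of RM03 (adjusted p = 0.0926), without the left eye of RM04 (0.0654) and without the libraries high in rods (0.0789), in a range of 0.00074 to 0.0926 over 15 alternatives. Without the 4 libraries high in Schwann cell markers it was -2.58 (SE 0.48, edgeR adjusted p = 0.00575), with only the eyes of RM04 left at the periphery. The part of Schwann cells in the level of SFRP1 was not tested further.

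WNT2B was low in RPE/choroid and differed between eyes. It was at 0.376, 0.134, 1.12 and 0.489 CPM at the fovea, 0.751, 0.13, 0.724 and 3.94 CPM in the perimacula, 0.165, 0.102, 2.66 and 2.18 CPM at the nasal location and 0.727, 3.52, 4.98 and 5.43 CPM at the periphery. At the nasal location both eyes of RM04 were far above those of RM03. WNT2B had a log2 fold change of fovea against periphery of -2.88 (SE 0.74, edgeR adjusted p = 0.00957), called in all 14 alternatives that gave a value (0.000126 to 0.0478). A sum of 6 markers of stromal fibroblasts was 2884 to 3758 CPM at the fovea and 4992 to 10023 CPM at the periphery. The genes closest to WNT2B over the 16 libraries were LUM, DCN and DPYD (Pearson r 0.961 to 0.931). LUM and DCN encode collagen-binding proteoglycans of connective tissue and are on that marker list, and LUM has 2 entries under its symbol, so its entry is uncertain. The part of fibroblasts in the level of WNT2B was not tested.

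WIF1 in RPE/choroid was at 8.73, 8.85, 2.0 and 3.33 CPM at the fovea and 81.3, 9.5, 29.9 and 87.8 CPM at the periphery, with no overlap and a log2 fold change of -3.52 (SE 0.71, edgeR adjusted p = 0.00233). Retina of the same eyes held far more of it, and the peripheral RPE/choroid had 10.4%, 0.986%, 2.37% and 6.22% of the retinal WIF1 level beside 3.58%, 0.427%, 0.862% and 2.68% of the retinal rod marker sum. Both shares ranked the 4 eyes alike, and the WIF1 share was the larger one in each. Without the 3 libraries high in rods the log2 fold change was -2.01 (SE 0.71, edgeR adjusted p = 0.0571, range 2.09e-06 to 0.0571 over 15 alternatives). The foveal library of the right eye of RM04 had a rod marker sum of 453 CPM but the lowest foveal WIF1 level. DKK3 was at 79.5, 89.3, 141 and 116 CPM at the fovea and 209, 213, 319 and 280 CPM at the periphery (-1.29, SE 0.23, edgeR adjusted p = 0.00122), and its share of the retinal level at the periphery was 21.2%, 18.9%, 21.9% and 24%. It was called in all 15 alternatives (-1.37 to -1.04), also without the libraries high in rods (-1.31, adjusted p = 0.0153). The part of retinal tissue in the RPE/choroid levels of WIF1 and DKK3 was not tested.

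**Figure D3:**
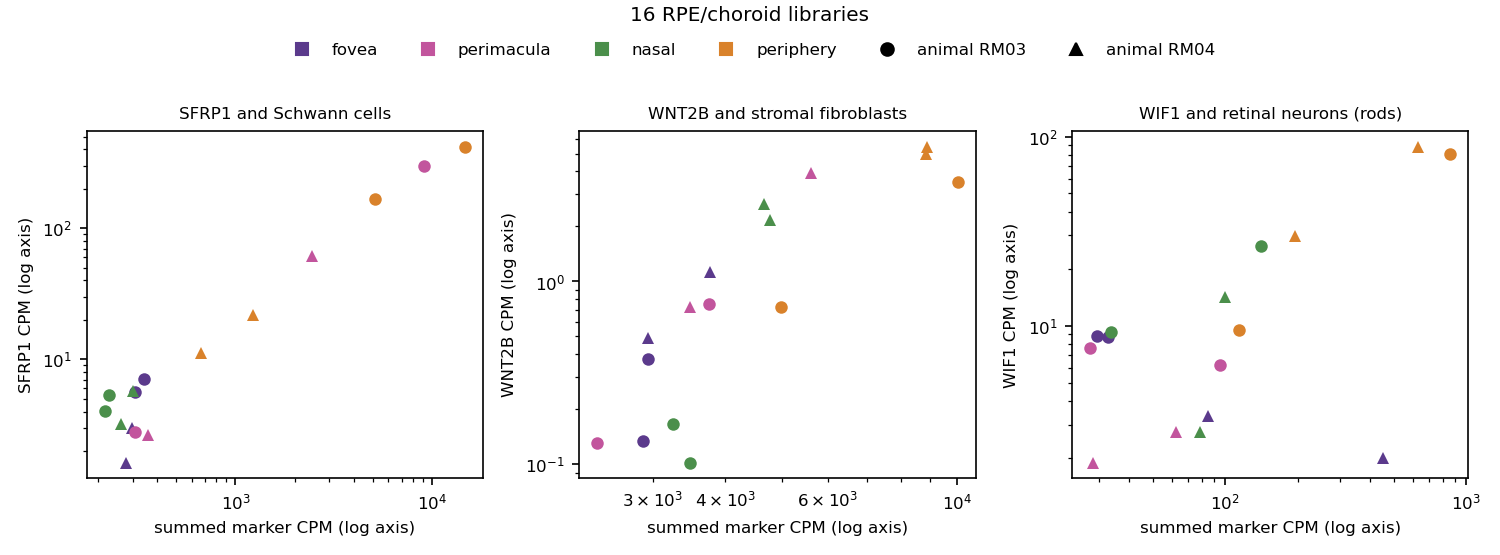
Levels in the 16 RPE/choroid libraries, in CPM on log axes, of SFRP1 against the summed Schwann cell markers, WNT2B against the summed stromal fibroblast markers and WIF1 against the summed rod markers, with colours for locations, circles for RM03 and triangles for RM04. The 4 libraries with a Schwann cell marker sum above 2000 CPM have the 4 highest SFRP1 levels, 61.3 to 415 CPM, and WIF1 is highest in the 2 peripheral libraries with the most rod markers but low in a foveal one with 453 CPM.

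Most of the other RPE/choroid comparisons gave fewer calls. The shares of all genes given here belong to the edgeR fit with all libraries and not to the alternatives. Between fovea and perimacula edgeR called 0 of the 10 genes (0.0447% of all genes), 3 genes had an unadjusted p under 0.05, and DESeq2 called 2, TSPAN12 and SFRP1. Between fovea and nasal location, 0 of the 10 genes were called by edgeR (0.361% of all genes) and 0 had an unadjusted p under 0.05. Between perimacula and nasal location 0 were called by edgeR (3.07% of all genes), 4 had an unadjusted p under 0.05, and DESeq2 called 1. Between perimacula and periphery LRP5, DKK3 and WIF1 were called (34.9% of all genes). Leaving out the 4 libraries high in Schwann cell markers left only the eyes of RM04 at the periphery. LRP5 was then lost and 2 genes were gained, WNT2B (-3.07, SE 0.63, edgeR adjusted p = 0.0173) and SFRP1 (-3.06, SE 0.53, edgeR adjusted p = 0.00991), beside -1.69 and -0.19 with all libraries. Between nasal location and periphery 7 genes were called, NDP, LRP5, TSPAN12, WNT2B, SFRP1, DKK3 and WIF1 (44.6%). Without the libraries high in Schwann cell markers, again with only the eyes of RM04 at the periphery, 3 of these calls were left. NDP (-0.47, edgeR adjusted p = 0.453), LRP5, TSPAN12 (0.35, adjusted p = 0.0753) and WNT2B (-1.52, adjusted p = 0.0585) were lost. Schwann cell markers and the animal cannot be told apart in that fit. Without the libraries high in rods 4 of the 7 calls were left, since NDP (-1.18, edgeR adjusted p = 0.0704), TSPAN12 (0.24, adjusted p = 0.21) and WIF1 (-0.96, adjusted p = 0.305) were lost. The nasal comparison within shared flow cells thus has calls for the 10 genes in retina and not in RPE/choroid, and the differences between the tissues were tested directly.

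A test of the interaction of tissue and location asked whether the fovea differed from the periphery by the same amount in both tissues. It was called for 5 of the 10 genes (43.5% of all genes): NDP at -1.14 (SE 0.44, edgeR adjusted p = 0.0379), FZD4 at -0.91 (SE 0.21, edgeR adjusted p = 0.000929), LRP5 at -1.85 (SE 0.24, edgeR adjusted p = 1.08e-06), FZD5 at -1.80 (SE 0.37, edgeR adjusted p = 0.00026) and SFRP1 at 6.58 (SE 1.49, edgeR adjusted p = 0.000769), each as the retinal log2 fold change minus that of RPE/choroid. For the first 4 genes the retinal value was the lower one, and LRP5 and SFRP1 had called differences of opposite sign in the 2 tissues. The NDP call was lost in 4 of 13 alternatives (adjusted p 0.000328 to 0.301), among them those without the right eye of RM04 (-0.66, adjusted p = 0.301), without its left eye (-1.04, adjusted p = 0.176) and without the RPE/choroid libraries high in rods (-0.97, adjusted p = 0.139). WNT2B, SFRP2, DKK3, WIF1 and TSPAN12 were not called, and a miss does not show that the tissues changed alike: the interaction of WNT2B was -0.94 with an SE of 1.13.

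For fovea against nasal location the interaction was called for 4 of the 10 genes (23.5% of all genes): NDP at -1.54 (SE 0.45, edgeR adjusted p = 0.0129), LRP5 at -1.21 (SE 0.24, edgeR adjusted p = 0.000645), TSPAN12 at -1.10 (SE 0.36, edgeR adjusted p = 0.0289) and DKK3 at -0.78 (SE 0.28, edgeR adjusted p = 0.0447). The call of DKK3 was lost in 9 of 13 alternatives (adjusted p 0.0304 to 0.241), among them the paired fit with the eye as a replicate block (adjusted p = 0.0575), that of TSPAN12 in 6 (0.0146 to 0.393) and that of NDP in 2, without the right eye of RM04 (adjusted p = 0.101) and without its left eye (0.116), in a range of 0.0017 to 0.116. Without the libraries high in rods TSPAN12 (edgeR adjusted p = 0.0652) and DKK3 (0.093) were lost and SFRP2 was gained (-2.31, adjusted p = 0.0452), and without those high in Schwann cell markers FZD4 (-0.52, adjusted p = 0.0196) and SFRP1 (1.77, adjusted p = 0.0231) were gained. For fovea against perimacula it was called for LRP5 (-0.79, SE 0.24, edgeR adjusted p = 0.0277, lost in 6 of 13 alternatives, 0.0142 to 0.256) and SFRP1 (6.36, SE 1.48, edgeR adjusted p = 0.00433), where 15.2% of all genes were called. That SFRP1 value rests on the perimacular RPE/choroid libraries with high Schwann cell markers: without the 4 libraries it was 1.26 (SE 0.63, edgeR adjusted p = 0.201), and without the right eye of RM03 it was 4.52 (adjusted p = 0.127), in a range of 3.92e-05 to 0.201. Without the 4 libraries the LRP5 call was lost as well (-0.78, adjusted p = 0.0887). FZD4 was not called (-0.60, SE 0.21, edgeR adjusted p = 0.0521), but 3 of 13 alternatives called it, DESeq2 (adjusted p = 0.0465) and those without either set of libraries (0.0397 and 0.0488), in a range of 0.0397 to 0.29.

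The direct comparison of the tissues divided the ligand from its receptors. NDP was higher in retina at all 4 locations, by a log2 fold change of 1.75 (SE 0.32) at the fovea, 1.95 (SE 0.32) at the perimacula, 3.29 (SE 0.34) at the nasal location and 2.89 (SE 0.33) at the periphery. FZD4, LRP5 and TSPAN12 were higher in RPE/choroid at all 4 locations. Retina was below RPE/choroid at the fovea by a log2 fold change of -3.27 (SE 0.16, edgeR adjusted p = 4.32e-16) for FZD4, -4.74 (SE 0.20, edgeR adjusted p = 1.58e-17) for LRP5 and -6.23 (SE 0.30, edgeR adjusted p = 2.74e-16) for TSPAN12, and at the periphery -2.36, -2.89 and -5.44. No retina value of these 3 genes overlapped RPE/choroid at any location. Between 75.5% and 76.7% of all genes were called between the tissues at a location, and 8, 9, 8 and 9 of the 10 genes at fovea, perimacula, nasal location and periphery.

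The retinal level of TSPAN12 was 0.838% to 4.77% of that in RPE/choroid of the same eye and location, that of LRP5 2.60% to 16.1% and that of FZD4 9.0% to 31.3%, beside 0.747% to 13.5% for the sum of the pigment epithelium genes RPE65, BEST1 and TYRP1. The range for the pigment epithelium genes enclosed that of TSPAN12, but within pairs of the same eye and location the order went both ways. At the nasal location the TSPAN12 share was 4.77%, 2.82%, 2.0% and 2.19%, above 3.19%, 2.28%, 1.66% and 1.81% for those genes. At the periphery it was 2.34%, 1.53%, 1.57% and 3.74%, below 3.46%, 13.5%, 5.06% and 4.31%. The part of pigment epithelium in the retinal TSPAN12 level was not tested. WIF1, DKK3 and SFRP2 were higher in retina at all 4 locations, at the fovea by 5.03 (SE 0.67), 2.09 (SE 0.21) and 2.50 (SE 0.60) on the log2 scale. FZD5 was higher in retina at perimacula (1.47, SE 0.26), nasal location (1.43, SE 0.26) and periphery (2.33, SE 0.27) and was not called at the fovea (0.53, SE 0.26, edgeR adjusted p = 0.0637, higher in 3 of 4 eyes). At the fovea 5 of 14 alternatives called it, among them DESeq2 (adjusted p = 0.0418) and a fit of the foveal libraries alone (0.00754), in a range of 0.00527 to 0.198. WNT2B was called at none of the 4 locations by edgeR, where its unadjusted p ran from 0.155 to 0.732, and 1 of 13 alternatives called it at the fovea (adjusted p 0.0335 to 0.527). SFRP1 differed in direction between fovea and periphery. It was higher in retina at the fovea (2.38, SE 1.04, edgeR adjusted p = 0.0403). That call was lost in 4 of 14 alternatives (6.64e-05 to 0.158), also without the libraries high in rods. At the periphery it was lower in retina (-4.20, SE 1.12, edgeR adjusted p = 0.00154, lower in 4 of 4 eyes). The perimacula was called lower as well (-3.98, SE 1.09, edgeR adjusted p = 0.00192), but 2 eyes were higher and 2 lower, with overlapping values. Without the 4 libraries high in Schwann cell markers the perimacular value of SFRP1 was 0.89, with the opposite sign and no call. A further 2 of 14 alternatives lost the perimacular call, in a range of adjusted p from 3.39e-05 to 0.136.

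The 2 animals differed in some of these genes, but for none of the 10 in either tissue were all 8 libraries of one animal above all 8 of the other, as they were for 3.80% of all genes in retina and 5.09% in RPE/choroid. TSPAN12 in RPE/choroid was at a median of 26.2 CPM (20.1 to 33) in RM03 and 40.6 CPM (31.6 to 53.1) in RM04, and FZD5 in RPE/choroid at 21.5 CPM (11.7 to 41.3) and 10.9 CPM (9.87 to 16.1). These ranges overlapped by a few libraries.

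The rest of the pathway was read from 10 lists that hold 76 further genes. In retina 57 of these were tested between fovea and periphery and 43 were called, 15 higher and 28 lower at the fovea, which is 75.4% beside 67.0% of all genes. In RPE/choroid 58 were tested and 29 called, 25 higher and 4 lower at the fovea, which is 50.0% beside 44.1%. Between fovea and nasal location 26 of 57 were called in retina, 7 higher and 19 lower, and 0 of 59 in RPE/choroid, by edgeR.

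Among Wnt ligands, 9 of 19 were tested in retina, 2 were higher and 6 lower at the fovea, with a median log2 fold change of -0.47. The other ligands named were WNT2 (-1.17, SE 0.27, edgeR adjusted p = 0.0024), WNT3 (-0.42, SE 0.16, edgeR adjusted p = 0.0337) and WNT9A (-0.47, SE 0.17, edgeR adjusted p = 0.0233). In RPE/choroid 10 were tested and WNT2B and WNT3 were lower at the fovea, WNT3 by -0.87 (SE 0.19, edgeR adjusted p = 0.0037). For Wnt secretion, PORCN, which attaches the lipid that Wnts need, was higher at the fovea in retina (0.69) and RPE/choroid (0.66), and WLS, their carrier, was lower in retina (-0.75) and higher in RPE/choroid (0.21).

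All 10 Frizzled genes were tested. In retina 1 was higher and 5 were lower at the fovea, FZD1 at 1.18 (SE 0.26, edgeR adjusted p = 0.00161) and FZD6 at -0.81 (SE 0.15, edgeR adjusted p = 0.000516) beside FZD4 and FZD5. In RPE/choroid 4 were higher at the fovea and 0 lower, among them FZD8 (0.94, SE 0.16, edgeR adjusted p = 0.00072), FZD7 (0.75, SE 0.17) and FZD3 (0.48, SE 0.16). Of 6 Wnt co-receptors, 5 were higher at the fovea in RPE/choroid, 0 lower, with a median log2 fold change of 0.76: LRP6, the paralogue of LRP5, rose from 44.4 ± 4.99 CPM at the periphery to 81.2 ± 12 CPM at the fovea (SD, n = 4), ROR1 from 13.1 ± 0.714 to 44.9 ± 11 CPM and ROR2 from 9.29 ± 3.80 to 23.8 ± 3.74 CPM. In retina 1 co-receptor was higher at the fovea, PTK7 (0.52, SE 0.08), and 3 were lower, LRP5, ROR2 (-0.81, SE 0.30) and RYK (-0.83, SE 0.09). RYK has 2 entries under its symbol, so its value is uncertain.

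Of 13 secreted Wnt inhibitors, 10 were tested in retina, and 7 were lower at the fovea and 1, SFRP1, higher. DKK1, beside the 4 of the 10 genes, was at 0.227 ± 0.134 CPM at the fovea and 3.97 ± 4.33 CPM at the periphery (SD, n = 4), a log2 fold change of -4.30 (SE 1.51, edgeR adjusted p = 0.024). In RPE/choroid 8 were tested, 5 were lower at the fovea and 1 higher. SFRP4 was at 15.9 ± 8.64 CPM at the fovea and 449 ± 229 CPM at the periphery (-4.86, SE 0.93, edgeR adjusted p = 0.00168) and SOSTDC1 at 0.138 ± 0.169 and 9.48 ± 7.27 CPM (-5.92, SE 0.95, edgeR adjusted p = 0.000561). Neither passed between fovea and nasal location (-0.26 and -0.98).

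The 13 genes of the beta-catenin core had 11 members tested in each tissue. In retina 6 were higher and 3 lower at the fovea. APC, the scaffold of the complex that degrades beta-catenin, was at 327 ± 29.6 CPM at the fovea and 127 ± 7.26 CPM at the periphery, its kinase GSK3B at 58.1 ± 2.12 and 25 ± 1.5 CPM, and the transcription factor TCF7 at 38.9 ± 6.14 and 13.1 ± 0.931 CPM (SD, n = 4). These 3 were also higher at the fovea than at the nasal location, within shared flow cells, by 0.54, 0.53 and 1.96 on the log2 scale, and TCF7L1 was lower than at the periphery (-1.28, SE 0.27). In RPE/choroid 8 were higher and 1 lower at the fovea, with LEF1 (1.70, SE 0.19, edgeR adjusted p = 4.93e-05), TCF7L2 (1.30, SE 0.13), APC (0.86, SE 0.13) and TCF7L1 (0.71, SE 0.14), none of which passed between fovea and nasal location.

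Feedback targets of Wnt signalling did not share a direction in retina. Of 10 tested, 4 were higher and 6 lower at the fovea, with NKD1 at 1.72 (SE 0.21, edgeR adjusted p = 1.51e-05) and TCF7 at 1.61 on one side and NKD2 at -2.87 (SE 0.53, edgeR adjusted p = 0.000485) and DKK1 on the other. In RPE/choroid LEF1 was the 1 of 9 tested that was called. Of the R-spondin group, 7 were tested in retina, where LGR5 was higher at the fovea (1.13, SE 0.23) and 4 were lower, among them the ubiquitin ligases ZNRF3 (-0.68, SE 0.12) and RNF43 (-0.70, SE 0.20), and in RPE/choroid LGR6 was the 1 of 9 called (3.16, SE 0.64, edgeR adjusted p = 0.00232).

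Genes of the endothelial barrier, several of which depend on norrin signalling in the mouse retina, had 6 members tested. In retina 2 were higher and 3 lower at the fovea: CLDN5, a tight junction protein, was at 1.24 ± 0.426 and 7.96 ± 6.05 CPM at fovea and periphery (-2.62, SE 0.66, edgeR adjusted p = 0.00406), PLVAP, a marker of fenestrated vessels, was at -0.86 (SE 0.18), MFSD2A at -0.44 (SE 0.13) and the transporter ABCB1 at 1.03 (SE 0.18). In RPE/choroid 5 were higher at the fovea and 0 lower, with SOX17 at 2.26 (SE 0.26, edgeR adjusted p = 7.36e-05), MFSD2A at 1.60 (SE 0.44), CLDN5 at 0.87 (SE 0.28) and ABCB1 at 0.83 (SE 0.08). The remaining one was PLVAP (0.61, SE 0.17, edgeR adjusted p = 0.015). The counts in both tissues thus include a marker of fenestrated vessels and do not give one direction for the barrier. The endothelial marker sum was higher at the periphery in retina and at the fovea in RPE/choroid, as given above. In retina its members PECAM1 and CDH5 were not higher at the periphery. The part of endothelial cells in these differences was not tested.

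**Figure D4:**
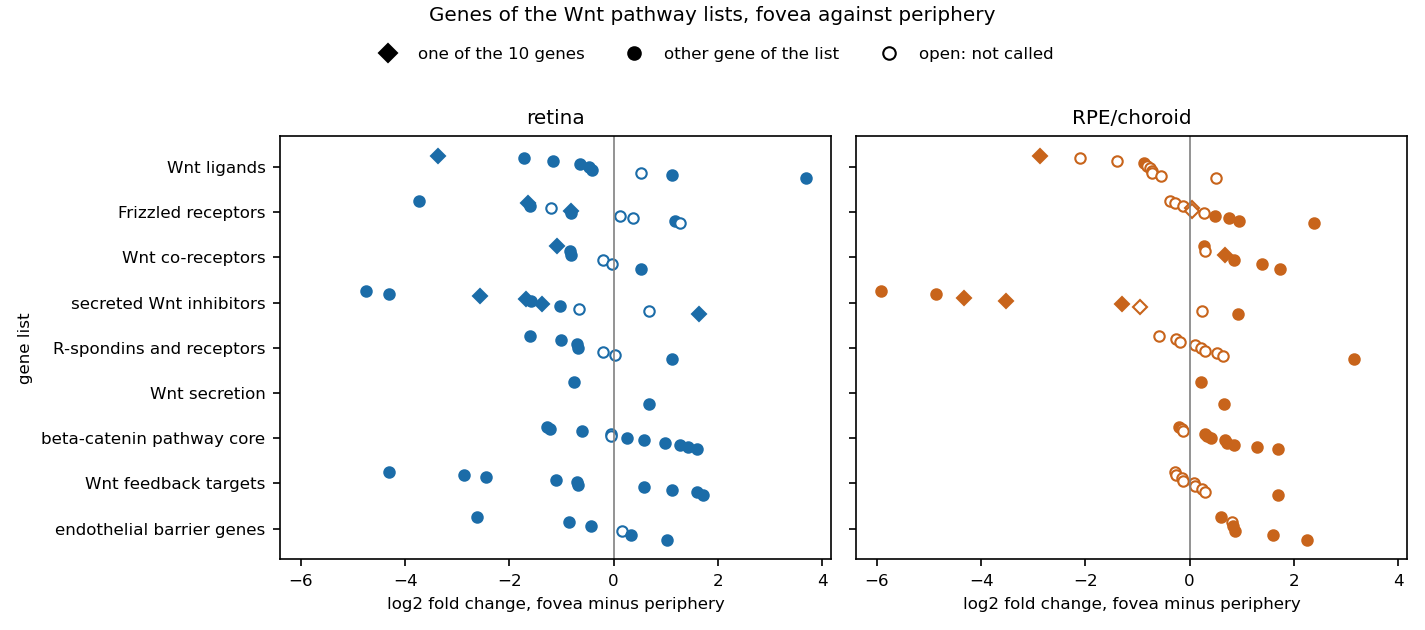
Log2 fold changes of fovea against periphery for the tested genes of 9 pathway lists (rows), in retina (left) and RPE/choroid (right), with diamonds for the 10 genes of the report, circles for other genes and filled symbols for genes called by edgeR. Co-receptors and endothelial barrier genes in RPE/choroid have calls above 0 and none below, and secreted Wnt inhibitors have 7 of 10 tested genes called below 0 in retina and 5 of 8 in RPE/choroid.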

How the data were processed

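RNA of 32 libraries was sequenced on 136 lanes, and a file per lane was deposited. Per the labels and the study's methods, the authors quantified reads against Mmul_8.0.1 with Salmon 0.13 and imported them with tximport as length-scaled TPM. The deposited column named TPM therefore holds estimated counts per gene: its sums differ between lanes, from 7932259 to 39439054. Each file has 19432 entries, 10 of which repeat an identifier, and 17721 symbols. The lanes belonging to each library were added up and rounded. No 2 libraries were identical.

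Counts were tested with edgeR 4.0.16 in R 4.3.3 (quasi-likelihood, TMM, filterByExpr at a minimum count of 10, animal as covariate, Benjamini-Hochberg adjustment over all genes tested, threshold 0.05), and levels are TMM-normalized CPM. Fovea, perimacula and periphery of a tissue were fitted together, nasal comparisons in a fit of 4 locations, and tissue and interaction comparisons over all libraries. The scripts were tested on simulated data. Standard errors were obtained from the fold change and the F statistic. Log2 CPM used a prior count of 2.

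The replicate number is the eye given in the labels and pairs samples across groups. Over 1000 genes, deviations from the group means correlated at a mean of 0.561 in retina and 0.387 in RPE/choroid between libraries of the same eye. The means were 0.555 and 0.403 between fellow eyes, and -0.559 and -0.395 between animals. Same and fellow eyes were alike, so these values show the animal and no further likeness within an eye. Subtracting group means itself pushes correlations between animals below 0.

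Alternatives were DESeq2 1.42.0, RLE normalization, no filter on low counts or a stricter one (10 counts or more in every library), a replicate block by eye, no covariate, 2 lanes per library, other sets of locations, single flow cells and leaving out each eye. Leaving out RPE/choroid libraries with Schwann cell markers above 2000 CPM or rod markers above 400 CPM was added after seeing the data. The 10 genes, the pathway and marker lists and the tests were chosen with earlier results of these data known. Genes named beyond the 10 are, in each list and tissue, up to 4 called genes of at least 1 CPM with the largest fold change between fovea and periphery, and the 3 genes closest to each of the 10 in the tissue where it is higher. The genes closest to SFRP1 are not reported here. APCDD1, DVL2, GSK3A, KIT, NOTUM, SFRP5, SOST, SOX18, VSX1, WNT3A, WNT6 and WNT10A were not analysed here. No transcript lengths were used, so levels are not compared between genes. Sequences and coordinates were not used here.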

Additional observations from a re-analysis of the deposited data

Results flagged for a closer look

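Of 80 groups of 4 eyes, 5 had a value far from the other 3, and chance flags about 1 group in 20. In RPE/choroid these were NDP in the right eye of RM03 at the perimacula (4.11 CPM, beside 1.45 to 1.83 CPM), WNT2B in the left eye of RM04 at the perimacula (3.94 CPM) and SFRP2 in the right eye of RM03 at the fovea (5.64 CPM). In retina they were TSPAN12 (1.32 CPM, high) and SFRP2 (24.1 CPM, low) at the nasal location in the right eye of RM03. The perimacular libraries of NDP and WNT2B are 2 of the 4 libraries high in Schwann cell markers, and the part of those cells was not tested.

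The change from fovea to another location differed between the tissues, by a test of the interaction, in 11 of 30 cases. Each value is the retinal log2 fold change minus that of RPE/choroid. Against the periphery, where 43.5% of all genes were called, these were NDP (-1.14), FZD4 (-0.91), LRP5 (-1.85), FZD5 (-1.80) and SFRP1 (6.58). Against the perimacula (15.2% of all genes) they were LRP5 (-0.79) and SFRP1 (6.36). Against the nasal location (23.5% of all genes) they were NDP (-1.54), LRP5 (-1.21), TSPAN12 (-1.10) and DKK3 (-0.78). LRP5 was called in all 3 interactions.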

How the results depend on the processing

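Over all member values and alternatives, 2469 kept direction and call, 36 gained a call, 115 lost it and 1 reversed: SFRP1 in retina against RPE/choroid at the perimacula, at 0.89 without the 4 libraries high in Schwann cell markers. Counts of called genes, of the 10, moved by over 1.5 times as follows, and the cause was not tested. The share of all genes called in each alternative is not given, so these counts are not read as particular to the 10 genes. In retina, perimacula against nasal location gave 0 with no covariate, 6 with DESeq2, 5 on flow cell HLKMNBBXX and 0 to 2 with an eye left out, and nasal location against periphery gave 3 to 6 with an eye left out. In RPE/choroid, fovea against periphery gave 3 without the libraries high in rods, fovea against perimacula 2 with DESeq2, and perimacula against nasal location 1 with DESeq2 and 1 on either flow cell alone. Nasal location against periphery there gave 4 with no covariate, 3 without the libraries high in Schwann cell markers, 4 without those high in rods and 3 to 5 with an eye left out. The interaction of fovea and perimacula gave 1 with 2 lanes, 1 without the libraries high in Schwann cell markers and 0 to 1 with an eye left out. That of fovea and nasal location gave 2 with no covariate, 2 with 2 lanes and 1 to 3 with an eye left out. Pairing by the eye (replicate block) changed 4 calls: WNT2B between foveal and perimacular retina (-1.39, edgeR adjusted p = 0.0747), SFRP1 between perimacular and peripheral retina (-0.38, adjusted p = 0.0673), TSPAN12 between foveal and nasal retina (adjusted p = 0.0533) and the interaction of DKK3 (adjusted p = 0.0575), and no other. Foveal retinal levels of WNT2B rest on 6 to 23 counts, which limits them.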
